A study of Mus musculus with 3 samples.

Results

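Prdm1, Irf4, Xbp1 and Bhlha15, which encode transcription factors of the plasma cell program, were followed across B cell stages in the spleen of mice. They were chosen by name for this role, not from measured values, and are 4 of the 32285 genes in the deposited counts. All 3 groups were mice on a mixed B6/129 background immunized 1 time, 10 days before they were killed, by injecting sheep red blood cells into the peritoneum, with 1 single-cell library for each genotype. The WT library came from unmodified mice. In 3'RR-BCL2 mice, a human BCL2 cassette under its own P1/P2 promoters and the core 3′ regulatory region of the heavy chain locus was inserted at random as a transgene, and in Igk-BCL2 mice the same cassette took the place of the Jκ segments, next to the κ enhancer. Both elements are active in B-lineage cells, and plasma cells are among the cells in which they drive transcription. The labels call the WT cells sorted B cells and those of both BCL2 mice whole tissue cells, while the methods of the study describe magnetic negative selection of B cells for all 3. Ages, and whether animals were pooled, are not given in the sources used here.

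The 4 factors act at different steps of the same change. PRDM1, also called Blimp-1, is a repressor that shuts off B cell genes such as Pax5, Bcl6 and Ciita and is needed for antibody secretion. IRF4 is present in resting B cells, is low in most germinal center (GC) B cells and is needed at high amounts for plasma cell formation, where it helps to turn Prdm1 on. XBP1 is made in its active form when the endoplasmic reticulum sensor IRE1 splices the Xbp1 transcript, and it raises the genes for protein folding and secretion. BHLHA15, also called MIST1, is a basic helix-loop-helix factor of secretory cells that XBP1 controls in several tissues. The counts analysed here sum both splice forms of Xbp1.

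All 4 are single protein-coding genes that overlap no other annotated gene on either strand. In GRCm38, Prdm1 (ENSMUSG00000038151) lies at chr10:44437177-44528501 on the minus strand, Irf4 (ENSMUSG00000021356) at chr13:30749226-30766976 on the plus strand, Xbp1 (ENSMUSG00000020484) at chr11:5520659-5525893 on the plus strand and Bhlha15 (ENSMUSG00000052271) at chr5:144190286-144194441 on the plus strand. The upstream sequences of Prdm1 and Bhlha15 are shown because both hold letters that XBP1 is known to read, and because XBP1 controls Bhlha15 in other secretory cells. Each run is the 250 bases before the RefSeq start (GRCm38.p6), 5′ to 3′ on the gene's strand, with capitals at CCACG or ACGTG on either strand. The Prdm1 window covers chr10:44458749-44458998 (minus strand), inside the annotated span of the gene because the RefSeq start lies further downstream, and the Bhlha15 window covers chr5:144190036-144190285 (plus strand).
Prdm1: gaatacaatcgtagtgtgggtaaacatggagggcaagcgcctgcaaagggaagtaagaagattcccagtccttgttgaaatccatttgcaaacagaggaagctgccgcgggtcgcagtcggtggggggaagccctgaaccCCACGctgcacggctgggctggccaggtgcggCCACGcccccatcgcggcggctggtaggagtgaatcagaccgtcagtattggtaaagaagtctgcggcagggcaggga
Bhlha15: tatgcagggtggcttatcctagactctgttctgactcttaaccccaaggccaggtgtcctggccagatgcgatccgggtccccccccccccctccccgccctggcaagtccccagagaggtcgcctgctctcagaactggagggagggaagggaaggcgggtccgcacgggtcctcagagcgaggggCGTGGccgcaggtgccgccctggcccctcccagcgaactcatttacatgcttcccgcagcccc
In the 300 bases from 250 before to 50 after each start, CCACG on either strand occurred 2 times for Prdm1, 1 time for Irf4, 3 times for Bhlha15 and 0 times for Xbp1, and 32.7% of all 27025 promoters hold it. ACGTG, the core that XBP1 reads, occurred 1 time, in Bhlha15, and 19.7% of promoters hold it. That match lies just downstream of the start, at the middle of chr5:144190293-144190322 (plus strand), where the other capitals are the ends of CCACG matches that run past the stretch.
Bhlha15 start: GtggctaaagctACGTGtccttgtccccCG
Neither CAGCTG (16.1% of promoters) nor CATATG (3.91%), the E-boxes of BHLHA15, nor GAAANNGAA of the IRF family (8.57%), nor GTGAAAG of PRDM1 (4.32%) was found in any of the 4 windows. GGAAG, the core read by ETS factors, occurred 4 times for Prdm1, 1 time for Xbp1, 3 times for Bhlha15 and 0 times for Irf4, and 71.1% of promoters hold it. These are descriptions of letters in fixed windows, and binding was not measured.

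The libraries held 11269 (WT), 7579 (3'RR-BCL2) and 7034 (Igk-BCL2) barcodes with 62777659, 45539172 and 37433924 unique molecular identifiers (UMIs, each standing for 1 captured transcript). With at least 800 genes and at most 8% mitochondrial UMIs, and with no upper limit, 10102, 6744 and 6366 barcodes were kept, with medians of 5049, 5337.5 and 4846.5 UMIs. The 3 pairs of libraries shared between 15 and 24 barcode sequences. Stages were set from 10 markers of plasma cells and similar lists for other stages, none of them a member, and 9891, 6555 and 6198 cells with at least 2000 UMIs outside immunoglobulin genes could be staged. With 1 library per genotype no test was possible. Intervals are 95% and cover counting error only, and genotype, animal, cell isolation and library cannot be told apart in any comparison of libraries.

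Plasma-like cells, in which an average of at least 3 of the 10 plasma cell markers had a UMI at equal depth, were few. There were 7 in WT, which is 0.0708% of staged cells (exact binomial interval 0.0285% to 0.146%), 15 in 3'RR-BCL2 (0.229%, 0.128% to 0.377%) and 22 in Igk-BCL2 (0.355%, 0.223% to 0.537%). Of these, 3, 8 and 10 cells held over 20000 UMIs, and 3, 8 and 12 would be lost under the filters of the study. The summed markers reached 35140 to 45537 CPM in plasma-like cells against 226 to 267 in resting-like cells, as the rule that chose the cells fixes. The markers include Jchain and Sdc1. The macrophage, erythroid and NK markers were at 0 in plasma-like cells and the 4 T cell markers summed to between 0 and 20.8 CPM. The summed GC markers were at 151 to 677 CPM in plasma-like cells and at 20.6 to 92 in resting-like cells, and 0, 6 and 2 plasma-like cells also met the rule for GC or non-B cells. The myeloid markers summed to at most 2.08 CPM. The part of doublets in these cells was not tested.

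The plasma-like cells nearest the limit, with 3 to 3.5 markers, numbered 0, 8 and 4, and 4, 9 and 9 cells lay just below it with 2.5 to 3 markers. The 9 cells of Igk-BCL2 below the limit held 18 Prdm1, 15 Irf4 and 53 Xbp1 UMIs. The 9 of 3'RR-BCL2 held 2, 6 and 8, and the 4 of WT held 0, 1 and 3. No cell just below the limit had a Bhlha15 UMI.

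Prdm1 was far higher in plasma-like cells than in any other stage. Summed over cells it stood at 75.5 UMIs per 1000000 UMIs (CPM, exact Poisson interval 37.7 to 135) in the plasma-like cells of WT, 119 (84.5 to 163) for 3'RR-BCL2 and 108 (80.8 to 142) for Igk-BCL2. Resting-like cells had 2.63, 3.41 and 4.64 CPM. The plasma-like level was thus 28.7-fold higher in WT (14.0 to 53.0), 34.8-fold in 3'RR-BCL2 (23.5 to 50.6) and 23.3-fold in Igk-BCL2 (16.6 to 32.3), and the intervals of the 3 libraries overlap. With 1 marker more required the ratio was 8.51-fold in 3'RR-BCL2 (4 cells) and 8.305-fold in Igk-BCL2 (14 cells), with stages set at 1000 UMIs 6.78-fold and 8.03-fold, and with 1 marker fewer 12.8-fold in WT (36 cells) and 17.5-fold in 3'RR-BCL2 (96 cells). Per cell the counts were low even so. The 7 WT plasma-like cells held 0, 1, 1, 1, 1, 2 and 5 Prdm1 UMIs, the 15 of 3'RR-BCL2 from 0 to 10 with a median of 1, and the 22 of Igk-BCL2 from 0 to 12 with a median of 1. Cells with at least 1 Prdm1 UMI numbered 6 of 7, 9 of 15 and 12 of 22, against 1.18%, 1.81% and 1.83% of resting-like cells, at median depths of 19264, 24938 and 17397 UMIs against 5003, 5262.5 and 4817.

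Although the level was so much higher there, most Prdm1 UMIs were counted outside plasma-like cells, which were rare. Plasma-like cells held 5.24% of all Prdm1 UMIs in WT, 17.6% for 3'RR-BCL2 and 23.1% for Igk-BCL2, while making up 0.0693%, 0.222% and 0.346% of the kept cells. Resting-like cells held 63.3%, 49.5% and 60.9% of them, mostly as single UMIs: 82 of 102, 79 of 94 and 78 of 98 resting-like cells with Prdm1 had exactly 1. Free RNA can give single UMIs in droplets of cells that do not express a gene, and its part was not tested, since empty droplets were not used here and the non-B cells (1 Prdm1 UMI in 22 cells of WT and 0 in 16 and 9 cells of the others) were too few to set a background.

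Between these extremes the order of Prdm1 levels differed between libraries, from few UMIs each. After plasma-like cells came non-dividing GC-like and marginal zone-like cells in WT, marginal zone-like and transitional-like cells in 3'RR-BCL2, and non-dividing GC-like and transitional-like cells in Igk-BCL2. Marginal zone B cells are known to turn into plasma cells quickly. The marginal zone-like level was 14.9 CPM in WT (25 UMIs in 14 of 200 cells) and 17.3 in 3'RR-BCL2 (17 UMIs in 6 of 113 cells, 12 of them in 1 cell), or 5.66-fold (3.53 to 8.72) and 5.08-fold (2.86 to 8.51) over resting-like cells. In Igk-BCL2 the 22 marginal zone-like cells held 0 Prdm1 UMIs, which allows up to 21.2 CPM (3 counts), so a level like that of WT would not have been detectable at this depth. Non-dividing GC-like cells stood at 15.7 CPM in WT, where 10 of the 15 UMIs came from 1 cell, at 5.93 in 3'RR-BCL2 and at 8.03 in Igk-BCL2, which in the last 2 is 1.74-fold (1.12 to 2.62) and 1.73-fold (1.04 to 2.75) over resting-like cells. Transitional-like cells had 7.71, 15.4 and 6.17 CPM from 5, 5 and 3 UMIs, of which the 3'RR-BCL2 level was 4.51-fold (1.44 to 10.8) over resting-like cells and the others were within counting error of them. Dividing GC-like cells had 0 UMIs in 53 cells of WT (up to 2.501 CPM at 3 counts, exact interval to 3.08), 3.06 CPM for 3'RR-BCL2 and 3.67 for Igk-BCL2, activated-like cells had 3.18, 3.23 and 4.44, and IFN-activated-like cells had 5.34, 7.41 and 1.99 from 4, 5 and 1 UMIs, values whose intervals hold the resting-like level.

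Xbp1 was higher in plasma-like cells too, and it was found in nearly every one of them. Its level was 1057 CPM (897 to 1238) in WT cells, 765 (673 to 866) for 3'RR-BCL2 and 691 (619 to 769) for Igk-BCL2, against 46.0, 56.0 and 51.1 in resting-like cells. The ratios were 23.0-fold (19.4 to 27.0), 13.7-fold (11.9 to 15.6) and 13.5-fold (11.97 to 15.2). The 7 WT plasma-like cells held 5, 5, 7, 18, 19, 39 and 61 Xbp1 UMIs, those of 3'RR-BCL2 from 0 to 55 with a median of 15, and those of Igk-BCL2 from 1 to 49 with a median of 15.5. The only plasma-like cells without an Xbp1 UMI were 2 cells of 3'RR-BCL2 with 3843 and 2954 UMIs in all, at most 5 Jchain UMIs and no Prdm1. After thinning each cell to 2000 UMIs outside immunoglobulin genes, which removes the advantage of deep cells, 7 of 7, 11 of 15 and 19 of 22 plasma-like cells had an Xbp1 UMI, against 9.14%, 10.1% and 8.99% of resting-like cells.

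Xbp1 also differed among the other stages. Both GC-like stages stood above resting-like cells in all 3 libraries. Non-dividing GC-like cells had 83.5, 86.4 and 78.0 CPM, 1.81-fold (1.43 to 2.27), 1.54-fold (1.39 to 1.72) and 1.53-fold (1.31 to 1.77) over resting-like cells. Dividing GC-like cells had 89.2, 99.4 and 91.7, or 1.94-fold (1.58 to 2.35), 1.78-fold (1.54 to 2.04) and 1.80-fold (1.33 to 2.38). Marginal zone-like, transitional-like and IFN-activated-like cells stood between 45.4 and 63.7 CPM, with intervals that hold the resting-like level of their library. The activated-like cells of WT were slightly higher at 56.7, 1.23-fold (1.08 to 1.40), and those of the other libraries had intervals that include no difference.

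Irf4 had the opposite layout, with its lowest levels in GC-like cells and a plasma-like level that depended on what it was measured against. In CPM of all UMIs, plasma-like cells had 117 (68.0 to 187) in WT, 131 (94.8 to 177) for 3'RR-BCL2 and 156 (123 to 196) for Igk-BCL2, and resting-like cells had 196, 188 and 252. The log2 ratios were −0.74 (−1.52 to −0.06), −0.52 (−0.99 to −0.09) and −0.69 (−1.04 to −0.37). Immunoglobulin transcripts, which take up much of a plasma cell's RNA, made up a median of 35.6%, 13.3% and 33.9% of the UMIs of a plasma-like cell. With these genes left out of the totals (non-Ig CPM), Irf4 stood at 199, 193.5 and 284 in plasma-like cells and at 199, 192 and 256 in resting-like cells, and the log2 ratios were 0.00, 0.01 and 0.15. The lower Irf4 level in CPM of all UMIs was thus no longer seen with these genes left out, where the plasma-like intervals held the resting-like levels, whereas Prdm1 and Xbp1 were higher on both scales. Single cells weighed heavily: 7 of the 17 Irf4 UMIs of WT, 18 of the 43 of 3'RR-BCL2 and 28 of the 75 of Igk-BCL2 came from 1 cell each. Median counts were 2, 1 and 1 per plasma-like cell, and 5 of 7, 14 of 15 and 16 of 22 had at least 1.

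**Figure D1:**
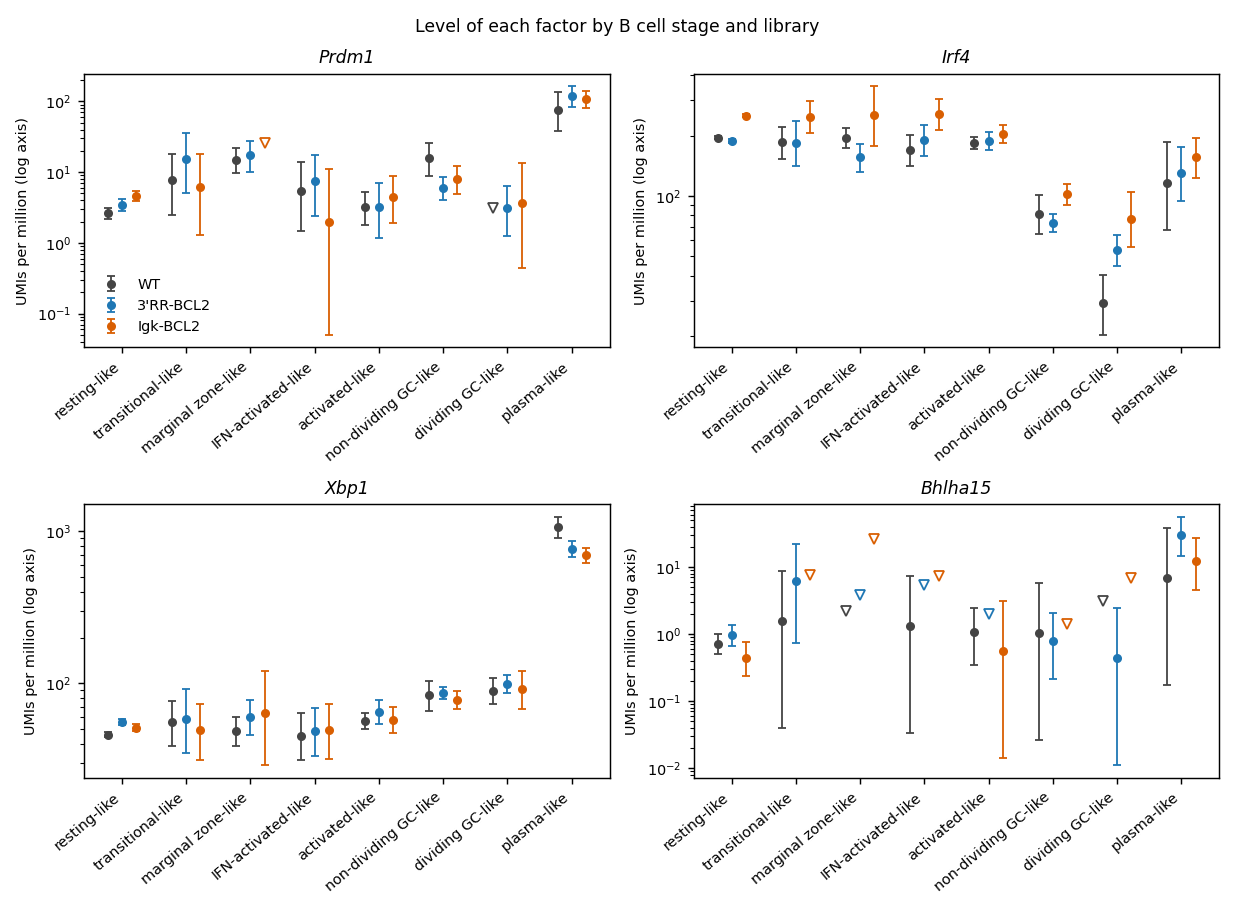
CPM of each member (log axes) by B cell stage in the 3 libraries, with 95% Poisson intervals; open triangles mark the upper ends of the intervals where a stage held 0 UMIs. Prdm1, Xbp1 and, in both BCL2 libraries, Bhlha15 stand highest in plasma-like cells (Prdm1 at 75.5 to 119 against 2.63 to 4.64 in resting-like cells), while Irf4 is lowest in dividing GC-like cells at 29.2 to 77.1.

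Against GC-like cells, from which many plasma cells arise, Irf4 was higher in plasma-like cells. The exception was WT in CPM of all UMIs against non-dividing GC-like cells, where the interval included no difference. In 3'RR-BCL2 and Igk-BCL2, a single cell held 41.9% and 37.3% of the plasma-like Irf4 UMIs. Without it, the Irf4 ratios to resting-like cells, given in the closing section, came close to those of non-dividing GC-like cells. In CPM of all UMIs the difference from non-dividing GC-like cells thus rests largely on single cells. Non-dividing GC-like cells had 81.4 CPM in WT (64.3 to 102), 73.2 in 3'RR-BCL2 (65.9 to 81.0) and 102 in Igk-BCL2 (90.2 to 115). Dividing GC-like cells had 29.2 (20.3 to 40.6), 53.8 (44.7 to 64.2) and 77.1 (55.5 to 104). Over resting-like cells the log2 ratios were −1.26, −1.36 and −1.31 in non-dividing and −2.74, −1.81 and −1.71 in dividing GC-like cells, and no interval reached 0. Plasma-like over dividing GC-like cells gave ratios of 4-fold (2.1 to 7.33, WT), 2.43-fold (1.68 to 3.47, 3'RR-BCL2) and 2.025-fold (1.37 to 3.03, Igk-BCL2) in CPM of all UMIs. Plasma-like over non-dividing GC-like cells gave log2 ratios of 0.52 (−0.33 to 1.29), 0.84 (0.35 to 1.30) and 0.61 (0.22 to 0.99) in CPM of all UMIs. Outside immunoglobulin genes they were 1.27 (0.42 to 2.04), 1.38 (0.89 to 1.84) and 1.46 (1.07 to 1.83), a difference beyond counting error in all 3 libraries on that scale. The remaining B cell stages lay close to the resting-like level of their library, from 170 to 195 CPM in WT cells, 156 to 190 CPM in 3'RR-BCL2 and 204 to 256 CPM in Igk-BCL2. Of these, the marginal zone-like cells of 3'RR-BCL2 (log2 ratio −0.27, −0.51 to −0.04) and the activated-like cells of Igk-BCL2 (−0.30, −0.46 to −0.15) were lower beyond counting error.

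The lower Irf4 of GC-like cells was graded. Cells were ordered by the number of 10 GC markers with a UMI at equal depth, leaving plasma-like and non-B cells out. In WT, Irf4 went from 195 CPM in cells with under 0.5 markers to 171, 68.5, 44.9 and 20.7 in the steps up to at least 3.5 markers. In 3'RR-BCL2 the same steps had 196, 130, 88.7, 53.5 and 49.2, and in Igk-BCL2 255, 198, 109, 82.0 and 86.2. The last 2 steps did not differ beyond their intervals in any library. Xbp1 ran the other way, from 47.0 to 111 and 80.1 in the last steps of WT, from 56.3 to 109 and 90.3 in 3'RR-BCL2 and from 51.2 to 96.7 and 104 in Igk-BCL2. The cells of the higher steps were also deeper, with medians of 6536 to 14593 UMIs from 1.5 markers on against 4768.5 to 5218 under 0.5, and the part of RNA content in these levels was not tested.

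**Figure D2:**
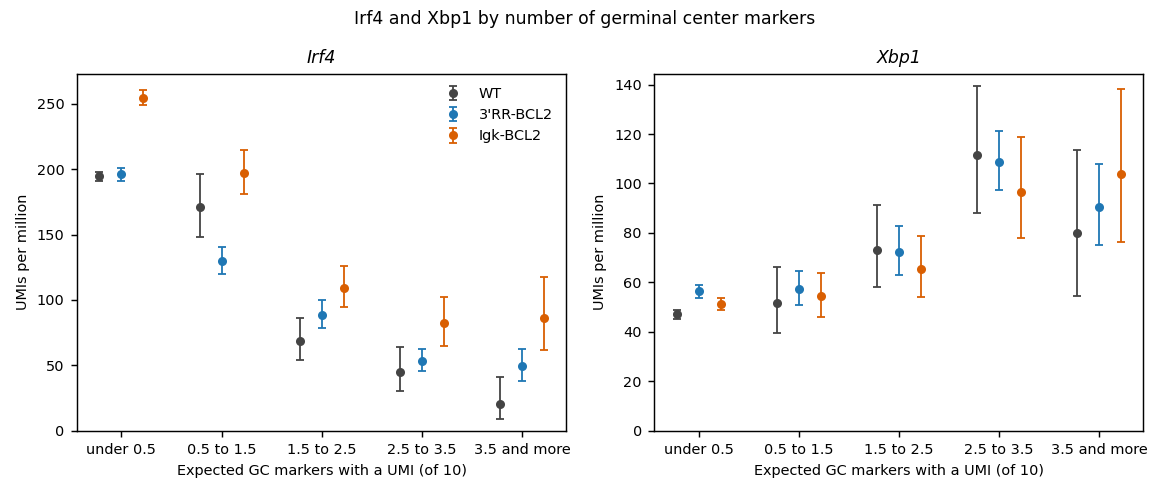
CPM of Irf4 and Xbp1 by the number of GC markers per cell (steps on the horizontal axis), with 95% Poisson intervals, for the 3 libraries. Irf4 goes from 195, 196 and 255 in the lowest step to 20.7, 49.2 and 86.2 in the highest, and Xbp1 from 47.0, 56.3 and 51.2 to 80.1, 90.3 and 104.

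Bhlha15 was near the limit of what these libraries can count. It had 46, 49 and 20 UMIs in all kept cells, of which 1, 10 and 6 fell in plasma-like cells. These are levels of 6.86 CPM (0.174 to 38.2) in WT, 30.5 (14.6 to 56.0) for 3'RR-BCL2 and 12.5 (4.58 to 27.2) for Igk-BCL2, against 0.713, 0.962 and 0.440 in resting-like cells. The ratio was 31.7-fold (13.9 to 66.3) for 3'RR-BCL2 and 28.4-fold (8.85 to 80.0) for Igk-BCL2, and in WT a single UMI gave 9.63-fold with an interval from 0.237 to 57.2. The 10 UMIs of 3'RR-BCL2 came from 4 cells with 3, 3, 3 and 1, and the 6 of Igk-BCL2 from 6 cells with 1 each. Resting-like cells with a Bhlha15 UMI numbered 33, 29 and 10, and all but 3, 2 and 3 of them had exactly 1. In the other stages no library had more than 5 UMIs of it.

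The members met in single plasma-like cells much more often than in resting-like cells. At full depth, 6 of 7, 13 of 15 and 20 of 22 plasma-like cells had UMIs of at least 2 members, 5, 12 and 12 of at least 3, and 1, 1 and 2 of all 4. Thinned to 2000 UMIs, the share with at least 2 members was 42.9%, 26.7% and 45.5%, against 3.51%, 3.67% and 3.61% in resting-like cells. Over the 3 libraries together, all 27 plasma-like cells with a Prdm1 UMI had an Xbp1 UMI and 23 had an Irf4 UMI, while of the 17 without Prdm1, 15 had Xbp1 and 12 had Irf4. After thinning, Xbp1 was found in 9 of 10 plasma-like cells with Prdm1 and in 28 of 34 without, shares whose intervals overlap widely.

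In resting-like cells at equal depth, Irf4 and Xbp1 were found little more often beside Prdm1 than without it. Irf4 was found in 37.5%, 36.1% and 42.5% of thinned cells with a Prdm1 UMI and in 31.0%, 30.8% and 36.0% of those without. Xbp1 was found in 12.5%, 16.7% and 15.0% of those with Prdm1 and in 9.13%, 10.1% and 8.94% of those without. The cells with Prdm1 numbered only 40, 36 and 40, and each interval held the share in the cells without.

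**Figure D3:**
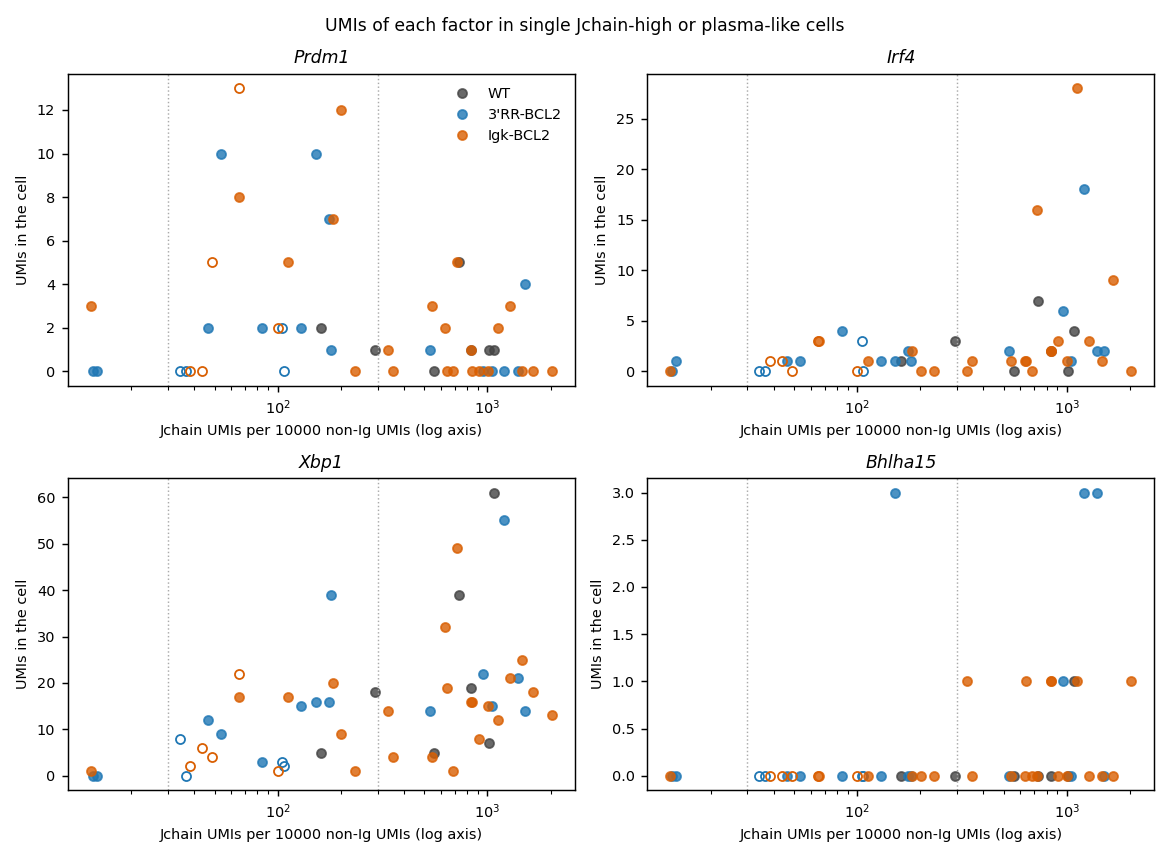
UMIs of each member in single cells (vertical axis) against Jchain UMIs per 10000 UMIs outside immunoglobulin genes (log axis), for plasma-like cells (filled) and for cells of other stages with at least 30 (open); dotted lines mark 30 and 300. The highest Prdm1 counts, 10 to 13, lie between 30 and 300, and the highest Irf4 counts, 16, 18 and 28, lie above 300.

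Plasma-like cells were not uniform. In both BCL2 libraries the cells with the most Prdm1 were not those with the most Irf4. In WT, 1 cell held the most of both, with 5 Prdm1 and 7 Irf4 UMIs. Cells were ordered by Jchain, the joining chain of secreted IgM and IgA, which is also 1 of the 10 plasma cell markers, and these steps were chosen after the data were seen. All values here are in non-Ig CPM. Between 30 and 300 Jchain UMIs per 10000 lay 2, 11 and 10 cells of WT, 3'RR-BCL2 and Igk-BCL2, and at 300 and more lay 5, 6 and 16, so that 23 and 27 cells were compared over the libraries. The lower step includes 8 cells outside the plasma-like stage and 1 too shallow to be staged, while all cells of the upper step were plasma-like. The mix of stages thus differs between the steps, and its part in the ratios was not tested. Prdm1 stood at 315 CPM in the cells of the lower step and at 87.7 in those of the upper, a log2 ratio of 1.84 (1.23 to 2.49). Cells with a Prdm1 UMI numbered 17 of 23 and 13 of 27. Of the 91 Prdm1 UMIs of the lower step, 3 cells held 35, and without them the log2 ratio was 1.47 (0.80 to 2.16).

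The libraries shared this order except for the few cells of WT. In Igk-BCL2 the Prdm1 levels were 450 and 85.3 (log2 ratio 2.40, 1.58 to 3.28), in 3'RR-BCL2 238 and 62.8 (1.92, 0.57 to 3.63) and in WT 135 and 126 (0.10, −2.45 to 2.16). In the lower step of 3'RR-BCL2, 2 cells held 10 Prdm1 UMIs each and 1 held 7, with Irf4 at 1, 1 and 2 UMIs in them. In that of Igk-BCL2, 4 cells held 13, 12, 8 and 7 Prdm1 UMIs, with Irf4 at 3, 0, 3 and 2. The cell with 13 was resting-like by its markers. In the upper step of 3'RR-BCL2, 4 of 6 cells had no Prdm1 UMI, among them the cell with the most Irf4 (18 UMIs, with 55 of Xbp1 and 3 of Bhlha15). The cell with the most Irf4 in Igk-BCL2 (28 UMIs) held 2 of Prdm1, and another with 16 held 5.

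Irf4, Xbp1 and Bhlha15 stood higher in the upper step when the cells of the 3 libraries were summed. Irf4 was at 100 CPM in the lower and 330 in the upper, a log2 ratio of −1.72 (−2.36 to −1.12) for lower over upper. A few cells carried much of the Irf4 difference, as 3 cells held 62 of the 113 Irf4 UMIs of the upper step. The median count was 1 in the lower and 2 in the upper step, and in Igk-BCL2 it was 1 in both. Without these 3 cells the upper level was 172 CPM (log2 ratio −0.78, −1.49 to −0.09). Xbp1 was at 847 and 1575 (−0.89, −1.12 to −0.67), and Bhlha15 at 10.4 and 40.9, from 3 and 14 UMIs (−1.98, −4.42 to −0.14), of which 3 cells held 7, and −1.20 (−3.78 to 0.93) without them. Immunoglobulin genes made up 8.92% to 23.3% of the UMIs in the lower step and 45.75% to 53.5% in the upper, so the totals matter for these ratios. In CPM of all UMIs the Prdm1 ratio was 2.69 and that of Irf4 −0.87, both beyond counting error, while Xbp1 was level at −0.05 (−0.27 to 0.17). The 3 cells with 62 of the 113 Irf4 UMIs were left out in non-Ig CPM only. Whether the Irf4 difference in CPM of all UMIs holds without them was not tested, and it may rest on them.

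Cells with 10 to 30 Jchain UMIs per 10000, most of them outside the plasma-like stage, had Prdm1 at 23.5, 8.33 and 19.6 non-Ig CPM. Those without a Jchain UMI had 3.18, 4.16 and 4.12. Xbp1 at 10 to 30 was 98.5, 129.5 and 101, against 47.9, 56.5 and 50.3 with no Jchain UMI. Irf4 was lower at 10 to 30, with 51.6, 45.8 and 105 against 198, 196.5 and 256. Of the 15 Prdm1 UMIs at this step in WT, 10 came from 1 cell.

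**Figure D4:**
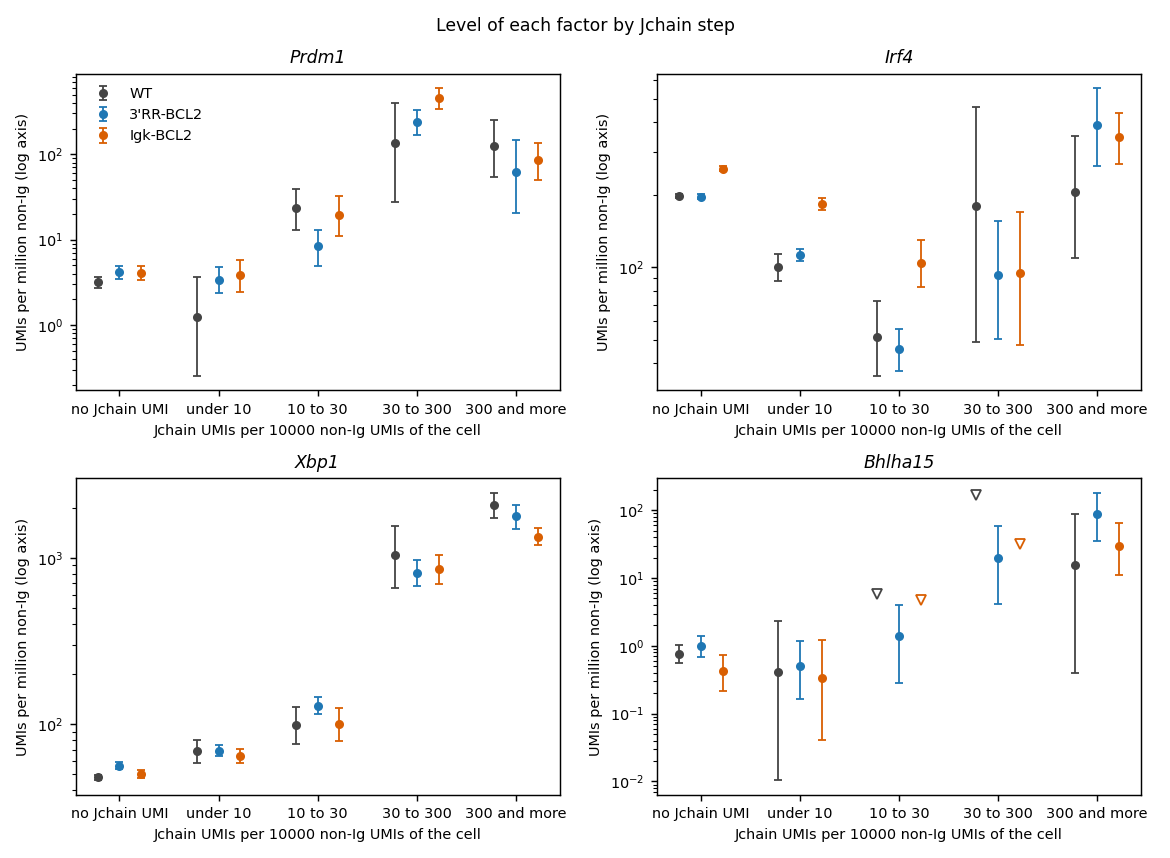
Non-Ig CPM of each member (log axes) by step of Jchain UMIs per 10000, in the 3 libraries, with 95% Poisson intervals and open triangles for the upper ends at 0 UMIs. In both BCL2 libraries Prdm1 peaks between 30 and 300 (238 and 450) and is lower at 300 and more (62.8 and 85.3), where Irf4 is at 389 and 346.

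The genes that these factors are known to act on were compared between plasma-like and resting-like cells in each library, in non-Ig CPM and with 0.5 added to each sum. Of all genes with at least 20 UMIs, 36.2% in WT, 21.9% for 3'RR-BCL2 and 19% for Igk-BCL2 were higher by at least 2-fold in plasma-like cells, and 17.2%, 17.5% and 18.8% were lower. Many of these have almost no UMIs in so few cells. Among genes with at least 5 UMIs expected in the plasma-like cells, the shares were 8.21%, 7.94% and 6.86% higher and 32.1%, 21.7% and 23.1% lower. Of the members, 3 of 4, 3 of 4 and 2 of the 3 with enough UMIs were higher by at least 2-fold on this scale, with Irf4 at no such difference. With at least 5 UMIs expected, 0 of 1, 1 of 2 and 1 of 2 were, and the count in WT includes Bhlha15 from 1 UMI.

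The genes that PRDM1 is known to repress were low in plasma-like cells. Of Pax5, Bcl6, Ciita, Spib, Bach2, Id3, Myc, Irf8, Cd22 and Fcer2a, 9 of 10 were lower by at least 2-fold in each library and 0 were higher. The list medians on the log2 scale were −4.61, −1.91 and −3.05, or −2.54, −1.96 and −3.14 with genes of 0 UMIs set to 3, while all measured genes had medians of 0.38, 0.06 and −0.08. With at least 5 UMIs expected, 8 of 9, 9 of 10 and 9 of 10 were lower. Spib, an ETS factor of B cells, had 0, 0 and 3 UMIs in plasma-like cells, and stood at 146, 126 and 118 CPM in resting-like cells. Myc had 0, 9 and 2 UMIs, or 0, 40.5 and 7.59 CPM against 172, 185 and 118. Irf8, which is needed in GC B cells, was the exception at 222, 220.5 and 239 CPM against 358, 347 and 352. Bcl6, the GC repressor that opposes PRDM1, had 1, 4 and 1 UMIs, with log2 intervals of −7.18 to 0.60, −3.37 to −0.13 and −9.07 to −1.29.

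Genes that XBP1 and the unfolded protein response raise were high in the same cells. Of 16 genes such as Hspa5, Pdia4 and Sec61b, 16, 15 and 15 were higher by at least 2-fold and 0 were lower, with medians of 2.76, 2.69 and 2.81. With at least 5 UMIs expected, 12 of 12, 14 of 15 and 14 of 15 were higher. Several of the markers that set the plasma-like stage, such as Derl3, Creld2 and Fkbp11, belong to the same secretory machinery, so this direction is partly fixed by the choice of cells. Hsp90b1, a chaperone of the endoplasmic reticulum, was at 5401, 3141 and 5897 CPM against 320, 399 and 379. Sec24d, a coat protein of transport vesicles, was at 105, 63.0 and 41.7 against 1.31, 1.77 and 0.825, from 9, 14 and 11 UMIs. Dnajb9, a cochaperone, was the least different of the list at 433, 279 and 334 against 208, 244 and 259.

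The sensors of this response were less uniform. Ern1, which encodes IRE1, the enzyme that splices Xbp1, was at 58.5, 22.5 and 64.5 CPM in plasma-like cells against 3.1, 2.68 and 4.33, with log2 intervals of 2.60 to 5.49, 1.41 to 4.35 and 3.07 to 4.63. Atf6, another sensor, was at 175, 90.0 and 182 against 73.5, 67.65 and 67.1. Eif2ak3, which encodes PERK, was at 117, 72.0 and 114 against 101, 100 and 124, with intervals that include no difference. Of the 6 genes of this list, 2, 1 and 2 were higher and 0, 1 and 0 lower by at least 2-fold, the lower 1 being Ppp1r15a in 3'RR-BCL2 (302 against 692). The shares of all genes were 36.2%, 21.9% and 19% higher and 17.2%, 17.5% and 18.8% lower, so the higher count is near them.

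**Figure D5:**
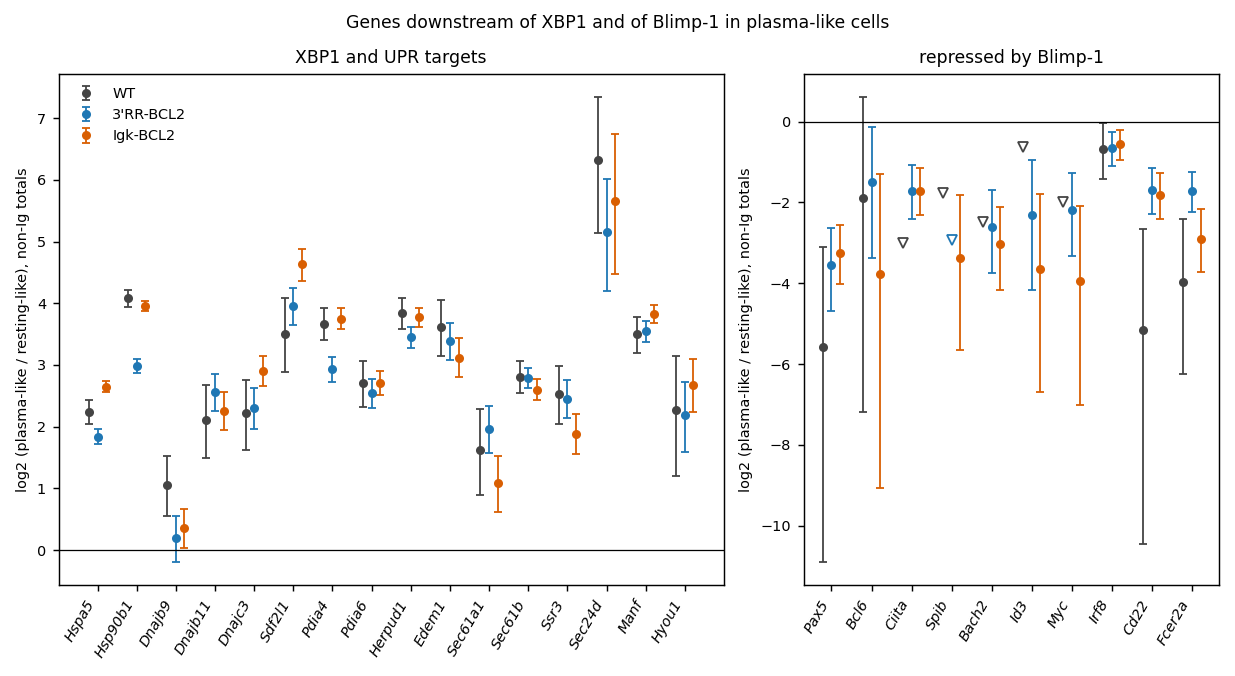
Log2 ratio of plasma-like to resting-like cells (non-Ig CPM, 0.5 added to each sum) for the genes of each list, by library. Genes repressed by Blimp-1 lie below 0, with 9 of 10 lower by at least 2-fold in each library, and the XBP1 targets lie above, with 16, 15 and 15 of 16 higher.

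Partners of the 4 factors split. Of 9 plasma cell cofactors, 2 were higher in each library and 4, 3 and 3 lower. The shares of all genes were 36.2%, 21.9% and 19% higher and 17.2%, 17.5% and 18.8% lower, so the higher count is near or below them. With at least 5 UMIs expected, 1 of 8, 2 of 9 and 2 of 9 were higher, against 8.21%, 7.94% and 6.86% of all genes. Ell2, an elongation factor that favors secretory heavy chain mRNA, was at 245.5, 225 and 205 CPM against 23.1, 25.8 and 20.01. Pou2af1, a coactivator of immunoglobulin promoters, was at 690, 563 and 485 against 178, 162 and 136. Its partner Pou2f2 was lower, at 105, 113 and 311 against 743, 680 and 798, and Aff3 was at 0, 36.0 and 22.75 against 115, 108 and 133.5. Of 12 factors of the B cell program, 8 were lower in each library, among them Ebf1, a founding factor of the lineage, at 93.5, 220.5 and 152 against 1619, 1525 and 1719. Pax5, Bcl6, Bach2, Spib, Id3 and Irf8 stand in this list and in that of the genes PRDM1 represses. Tcf3 was not among those that differed by 2-fold in every library (81.8, 45.0 and 79.6 against 109, 98.1 and 94.6), and the 1 counted as higher, Mitf, had 0 UMIs in plasma-like cells and owes its ratio to the added 0.5.

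The other genes of the IRF family were, like Irf4 on this scale, not higher by 2-fold in plasma-like cells. Of 7, 0 were higher and 2, 0 and 2 lower, with Irf1 at 93.5, 94.5 and 114 CPM against 80.0, 114 and 109 and Irf2 at 105, 167 and 224 against 302, 328 and 354. Irf5 was at 0, 45.0 and 26.55 against 84.0, 80.2 and 86.0, and Irf7 had 1, 7 and 5 UMIs. Of 5 genes linked to BHLHA15 in secretory cells, 4, 3 and 3 had enough UMIs and 4, 1 and 2 were counted as higher. In WT this count includes Rab26, which had 0 UMIs in plasma-like cells and owes its ratio to the added 0.5, and with at least 5 UMIs expected only 0, 1 and 1 of the list could be read, the 1 being higher in each BCL2 library. Ccpg1, which serves turnover of the endoplasmic reticulum, was at 339, 153 and 258 against 41.1, 45.2 and 48.9, Rab3d of secretory vesicles had 4, 0 and 6 UMIs, and Rab26 had 0 in all 3 libraries.

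Light zone and dark zone genes of the GC were mixed. For the counts that follow, the shares of all genes were 36.2%, 21.9% and 19% higher and 17.2%, 17.5% and 18.8% lower. Of 6 light zone genes, 2 were higher in each library, Egr1 (2735, 697.5 and 781 CPM against 86.7, 104 and 93.3) and Nfkbia (444, 864 and 895 against 203, 239 and 217), and 4, 3 and 4 were lower, among them Cd86 at 11.7, 27.0 and 34.1 against 128.5, 137 and 128. Of 6 dark zone genes, 4, 3 and 1 were higher and 2 lower in each library, but with at least 5 UMIs expected 0 were higher and 2 lower. Mki67, a marker of dividing cells, was at 210, 94.5 and 60.7 CPM against 16.02, 21.45 and 8.87, and Cxcr4, the dark zone receptor, at 11.7, 144 and 106 against 289, 338 and 492, while Foxp1 was at 351, 288 and 391 against 1041, 1003 and 1107.

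Cells with Prdm1 but without Jchain, outside the plasma-like and GC-like stages, were compared in the same way. There were 134, 97 and 93 such cells, of which 100, 77 and 85 were resting-like and 13, 6 and 0 marginal zone-like. They were compared with 9471, 4994 and 5096 cells without either. Their median depth was 6945.5, 6315 and 5652 UMIs against 5056, 5139 and 4724, so the cells with Prdm1 were deeper, and the part of depth was not tested. Of all measured genes, 13%, 12.8% and 15.1% differed by at least 2-fold either way. None of the 10 genes that PRDM1 represses did, with medians of −0.19, −0.05 and −0.31. Smaller differences with intervals below 0 in all 3 libraries were found for Fcer2a (log2 ratios −0.47, −0.49 and −0.64) and Ciita (−0.30, −0.45 and −0.32). Within resting-like cells alone they were smaller, at −0.25, −0.26 and −0.26 for Fcer2a and −0.21, −0.42 and −0.14 for Ciita. The Ciita interval of Igk-BCL2 there included no difference (−0.37 to 0.08). Of the 16 XBP1 targets 0, 1 and 2 were higher, with medians of 0.01, 0.09 and 0.51. Xbp1 was at 46.8, 89.8 and 72.8 CPM against 47.9, 55.9 and 49.9 (log2 ratios −0.03, 0.68 and 0.54, the last 2 beyond counting error). Irf4 was at 183, 210.5 and 186 against 198, 199 and 259.5, and only the Igk-BCL2 ratio of −0.48 (−0.73 to −0.25) was beyond it.

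Other genes differed in these cells, and those named here were chosen after the values were seen. Of 11441 genes measured in all 3 libraries, 95 were higher and 94 lower with intervals that excluded 0 in each, and 25 and 20 of them also were within resting-like cells alone. All levels are in non-Ig CPM. Markers of other cells were among the higher genes, such as the myeloid genes Mpeg1 (log2 ratios 0.92, 2.02 and 1.59) and Ms4a6c (1.21, 2.02 and 1.16) and the mitotic gene Cenpf (2.53, 1.56 and 4.40), and 3, 1 and 4 of the 6 dark zone genes were higher by 2-fold. Within resting-like cells alone, Mpeg1 was at −0.11, 0.16 and −0.45, Ms4a6c at 1.14, 1.40 and 0.18 and Cenpf at 3.07, 1.62 and −0.69. The lists of macrophage markers and of neutrophil and other myeloid markers had 0 UMIs in the cells with Prdm1 of WT and Igk-BCL2. The summed division markers stood at 247, 57.5 and 524 CPM against 69.0, 54.6 and 59.6, but 1 cell held 135 of the 264 UMIs in WT and 1 cell 329 of the 417 in Igk-BCL2. In 3'RR-BCL2, 1 cell held all 332 UMIs of the neutrophil and other myeloid markers, and in Igk-BCL2 1 cell held all 13 of the NK markers. The part of these single cells in the differences named next was not tested. Myb, a factor of immature and proliferating cells that is among the transitional markers, was at 42.1, 19.6 and 20.1 CPM against 8.79, 5.45 and 4.25 (log2 ratios 2.26, 1.85 and 2.24), and at 2.52, 2.81 and 2.35 within resting-like cells. Actn1, an actin crosslinker, had log2 ratios of 2.83, 3.44 and 2.34 from 15, 15 and 11 UMIs. Plac8 was at 1212, 860 and 717 CPM against 577, 476 and 348. Within resting-like cells, Mzb1, a chaperone of immunoglobulin assembly, was at 461, 449.5 and 418 against 291, 311 and 351.5, and Fcer2a, a marker of follicular B cells, was lower at 466, 444 and 359 against 552, 533.5 and 430.

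Between libraries, the members were compared within a stage. In plasma-like cells, 17% of measured genes for 3'RR-BCL2 and 16.2% for Igk-BCL2 were past 2-fold either way against WT, and 0 of the 3 members with enough UMIs were. Of the genes that PRDM1 represses, 3 of the 4 with enough UMIs for 3'RR-BCL2 and 2 of 3 for Igk-BCL2 were higher by 2-fold. None was lower, and the medians were 2.39 and 2.62 against 0.09 and −0.04 for all genes. Ciita had 20 and 27 UMIs against 0 in the 7 WT cells, and Cd22 27 and 28 against 1. Fcer2a, with enough UMIs for 3'RR-BCL2 only, had 35 against 3. These calls thus rest on 0 to 3 WT UMIs per gene. With at least 50 UMIs required, 1 gene of the list was left for each BCL2 library, at −0.03 and 0.08. Of the 3'RR-BCL2 plasma-like cells 8 had only 3 to 3.5 markers, as did 4 of Igk-BCL2 and 0 of WT. The rule for GC or non-B cells was also met by 6, 2 and 0 cells. The part of such cells in these differences was not tested. The list values are in non-Ig CPM, where Prdm1 had log2 ratios of 0.45 for 3'RR-BCL2 and 0.62 for Igk-BCL2 over WT. Irf4 had −0.04 and 0.52 there. In CPM of all UMIs, used for the members from here on, Prdm1 had log2 ratios of 0.65 (−0.34 to 1.77) for 3'RR-BCL2 over WT and 0.52 (−0.44 to 1.61) for Igk-BCL2 over WT. Irf4 had 0.17 (−0.67 to 1.07) and 0.42 (−0.35 to 1.27). The intervals thus reach 3.41-fold and 3.05-fold for Prdm1 and 2.1-fold and 2.42-fold for Irf4. The direction for Prdm1 depended on which cells were called plasma-like, since with 1 marker more the ratios were −1.22 and −0.81 and with stages set at 1000 UMIs −1.25 and −0.78, and with 1 marker fewer the Igk-BCL2 ratio was 1.62. Xbp1 was lower in both, at −0.47 (−0.76 to −0.17) and −0.61 (−0.89 to −0.33). In WT, 1 cell held 61 of the 154 UMIs, and without the cell with the most Xbp1 in each library the ratios were −0.41 (−0.77 to −0.04) and −0.43 (−0.78 to −0.08). Under the filters of the study the ratios were −0.01 and 0.22. Bhlha15 had 1 UMI in WT, and the ratios were 4.44-fold (0.632 to 193) and 1.82-fold (0.221 to 83.7).

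In resting-like cells, where counts were large, Irf4 was 1.29-fold higher in Igk-BCL2 than in WT (1.25 to 1.33), with 252 against 196 CPM, and 0.963-fold in 3'RR-BCL2 (0.933 to 0.995). Xbp1 was 1.22-fold (1.14 to 1.29) for 3'RR-BCL2 and 1.11-fold (1.04 to 1.19) for Igk-BCL2. Prdm1 was 1.30-fold (0.998 to 1.68) and 1.76-fold (1.38 to 2.25). Of the 137 Prdm1 UMIs of Igk-BCL2, 1 cell held 13 and another 5, at 65.4 and 48.8 Jchain UMIs per 10000. Their part in the ratio was not tested. In dividing GC-like cells, Irf4 was 1.85-fold (1.26 to 2.77) for 3'RR-BCL2 and 2.64-fold (1.65 to 4.26) for Igk-BCL2 over WT. In non-dividing GC-like cells its intervals included no difference, and Prdm1 was lower than in WT in 3'RR-BCL2 (log2 ratio −1.40, −2.34 to −0.40), where the WT value rests on 10 UMIs of 1 cell. These intervals cover counting error and not differences between mice.

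The genes whose pattern was most like that of each member were found over 22 sums of a stage in a library with at least 20 cells, of which 1 is plasma-like, among 12879 genes and on the scale of log2(CPM + 5). The points share libraries and depth, and the correlations are descriptions. For Irf4 they were Adgre5 (Pearson r = 0.938), Ifnar1 (0.917), Fam169b (0.917) and Klf2 (0.902), and they hardly moved without the plasma-like point, to between 0.908 and 0.941. For Xbp1 they were Prg2 (0.946), Kcnmb4os2 (0.940), Pls1 (0.930), A830005F24Rik (0.913) and Tnfrsf17 (0.910), and without the plasma-like point they were between −0.195 and 0.644. For Prdm1 they were Gm37759 (0.847), Ctsb (0.847), Gm12503 (0.844), Oosp1 (0.834) and Gm16174 (0.829), with Ctsb at 0.719 and the others at 0.524 to 0.658 without it. For Bhlha15 they were Gm37759 (0.897), Reln (0.880), Prlr (0.877), 4930428O21Rik (0.877) and Ssr3 (0.866), and 0.619 to 0.668 without it. Apart from those of Irf4, these likenesses rest largely on the single plasma-like sum. Tnfrsf17 is also 1 of the plasma cell markers, which set the stages.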

How the data were processed

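The authors deposited UMI counts per gene and barcode, made with Cell Ranger 6.1.1 (mm10 and hg38 among the listed builds, all gene identifiers mouse) from 10x 3′ v3.1 libraries. Only called cells are in them, and the study's further filters were not yet applied. Depths are given in the report. Barcodes with at least 800 genes and at most 8% mitochondrial UMIs were kept, without the limits of 4500 genes, 20000 UMIs and 10% ribosomal UMIs that the study used. The expected number of markers with a UMI at a depth of 2000 UMIs outside 392 immunoglobulin genes set each stage, in the order non-B (1.5 markers), plasma-like (3), GC-like (1.5, dividing with 2 division markers), IFN-activated-like (1.5), marginal zone-like (1.5), transitional-like (1.5) and activated-like (2), with all others resting-like. The levels needed were set after the marker numbers were seen. Shallower cells, 211, 189 and 168, were not staged. No doublet caller was run. Levels are summed UMIs per 1000000 UMIs (CPM), with immunoglobulin genes left out of the totals where non-Ig CPM is named, with exact Poisson intervals, shares have Clopper-Pearson intervals and ratios an exact conditional interval for 2 Poisson counts. On simulated Poisson counts for 2666, 5316 and 6007 genes, 97.4%, 96.5% and 96.7% of the intervals of the plasma-like to resting-like ratio held the true value in WT, 3'RR-BCL2 and Igk-BCL2. Spread between cells was not simulated, so these shares check the calculation only. They do not show how well the intervals cover differences between cells.

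The 4 genes, the marker and pathway lists and the comparisons were chosen with earlier results of these data known. Beside the 4 members, the text names up to 4 genes of a list with the highest and lowest median ratios and the 5 genes with the most similar pattern, of which 1 is not reported here. Other genes named were chosen after their values were seen. Alternatives were other totals, filters, marker numbers, thinning depths and minimum counts. Alternatives added after seeing the data were stages set by Jchain, leaving out the cell (or 3 cells of a Jchain step) with most UMIs, sums of at least 5 cells and at least 5 expected UMIs. Intervals cover counting error only. Coordinates are from GENCODE vM21 and promoters from RefSeq (GRCm38.p6), in which all 4 members were found. Python 3.11.15, numpy 2.4.6, scipy 1.17.1 and pandas 2.3.3 were used.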

Additional observations from a re-analysis of the deposited data

Results flagged for a closer look

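In 3 comparisons the difference of a member between a BCL2 library and WT had opposite signs in 2 stages, each with a counting interval that excluded 0. With 1 library per genotype the difference between stages was not tested. Irf4 in 3'RR-BCL2 over WT had a log2 ratio of 0.88 in dividing GC-like cells and −0.05 in resting-like cells. Xbp1 in 3'RR-BCL2 over WT was at 0.28 in resting-like cells and −0.47 in plasma-like cells. Xbp1 in Igk-BCL2 over WT was at 0.15 in resting-like cells and −0.61 in plasma-like cells. Both plasma-like ratios of Xbp1 are taken against the 7 plasma-like cells of WT.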

How the results depend on the processing

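No paired analysis was possible because each genotype had 1 library, and for the same reason no replicate was left out. Of the values that answer a comparison, 141 stayed within their counting interval under an alternative, 47 moved and 8 whose interval had excluded 0 changed sign. Another 7 whose interval had held 0 also changed sign, 4 of which are among the 47. The cause was not tested unless named.

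Without immunoglobulin genes in the totals, which makes the totals of plasma-like cells smaller, the plasma-like to resting-like log2 ratio of Irf4 changed sign to 0.00 (WT), 0.01 (3'RR-BCL2) and 0.15 (Igk-BCL2), that of Prdm1 was 5.39 in Igk-BCL2 and those of Xbp1 were 5.27, 4.31 and 4.60. Levels in plasma-like cells were then 175.5 (3'RR-BCL2) and 197.2 (Igk-BCL2) CPM for Prdm1, 198.7, 193.5 and 284.4 for Irf4 and 1800, 1130 and 1259 for Xbp1. Under the filters of the study, Prdm1 was at 5.67 in 3'RR-BCL2, Irf4 at 0.46 in Igk-BCL2 with a change of sign, and Xbp1 at 4.0 in WT and 4.07 in Igk-BCL2, while over WT in plasma-like cells Irf4 was at 2.05 in Igk-BCL2 and Xbp1 at −0.01 in 3'RR-BCL2 and, with a change of sign, 0.22 in Igk-BCL2.

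With 1 marker more, Prdm1 was at 3.09 (3'RR-BCL2) and 3.05 (Igk-BCL2), Irf4 changed sign to 0.22 in 3'RR-BCL2, and Prdm1 over WT was −1.22 and −0.81. With 1 marker fewer, the ratios to resting-like cells were 3.68 (WT) and 4.13 (3'RR-BCL2) for Prdm1, −1.07 (3'RR-BCL2) for Irf4, 3.5, 2.71 and 3.43 for Xbp1 and 3.58 (3'RR-BCL2) for Bhlha15, while in Igk-BCL2 over WT Prdm1 was 1.62 and Xbp1 changed sign to 0.04. With stages set at 1000 UMIs, Prdm1 was at 2.76 (3'RR-BCL2) and 3.01 (Igk-BCL2), Irf4 changed sign to 0.28 in 3'RR-BCL2, and Prdm1 over WT was −1.25 and −0.78. Without cells that met the rules of 2 classes, Prdm1 was at 4.55 (3'RR-BCL2) and 4.0 (Igk-BCL2). Without the cell with most UMIs of the member, an alternative chosen after seeing the data, Irf4 was at −1.15 (3'RR-BCL2) and −1.32 (Igk-BCL2), and Xbp1 at 4.27 (WT) and 3.57 (3'RR-BCL2).

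The share of plasma-like cells with an Xbp1 UMI was 42.9% in WT when thinned to 1000. It was 100% in 3'RR-BCL2 and Igk-BCL2 when thinned to 4000, 100% in Igk-BCL2 without thinning and 100% in 3'RR-BCL2 with 1 marker more. With 1 marker fewer it was 33.3%, 27.1% and 40%. Prdm1 and Xbp1 stayed higher in plasma-like than in resting-like cells in every library under all of these alternatives. With 7 to 22 plasma-like cells a library, single cells limit the precision, most of all for Bhlha15.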
